A study of Mus musculus with 26 samples.

Results

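The 9 genes described here take part in making or sensing prostaglandins, thromboxane and leukotrienes: the cyclooxygenases Ptgs1 and Ptgs2, the terminal synthases Ptges and Tbxas1, the prostanoid receptors Ptgir, Ptger2 and Ptger4, and the leukotriene enzyme Alox5 with its partner Alox5ap. They were chosen by name from the pathway, with earlier results of these data known. They make up 9 of the 49993 genes of the RefSeq list for GRCm38.p6 (mm10). A region was given to one of them where it overlapped the gene's RefSeq span plus 1 kb, or, for HA and H3K27ac, where it lay between genes within 50 kb and had that gene as its nearest. By this rule the 9 genes held 42 of 42505 HA-Nur77 regions, 32 of 46133 RNA polymerase II (Pol II) regions and 45 of 77715 regions of histone H3 acetylated at lysine 27 (H3K27ac).

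The series is a set of ChIP-seq experiments in RAW 264.7 cells, a mouse macrophage line, and holds 26 libraries. One stable line makes HA-tagged Nur77, the nuclear receptor encoded by Nr4a1, when given doxycycline, and another makes GFP in the same way. All cells of all groups had 50 ng/ml doxycycline for 18 h, so the untreated and the GFP cells carry the drug too. The groups are Nur77 cells given 500 ng/ml of bacterial lipopolysaccharide (LPS) for 1 h, untreated Nur77 cells, GFP cells given the same LPS, and untreated GFP cells. HA was precipitated only from Nur77 cells, in 3 LPS and 3 untreated libraries, after a first fixation with 2 mM DSG. Pol II and H3K27ac have 2 libraries for each line and condition, and each line and condition has 1 input library, which is sonicated chromatin without a precipitation. Each transgene is represented by 1 stable line, so a difference between the lines and an effect of Nur77 cannot be told apart, and no library shows which sites the endogenous, untagged Nur77 occupied. Nothing in the labels tells whether replicates are separate cultures, so p-values measure only the spread between these libraries, which may be technical.

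Prostanoids and leukotrienes are lipid mediators made from arachidonic acid, which phospholipases release from membranes. Cyclooxygenases turn arachidonic acid into prostaglandin H2, from which Ptges makes prostaglandin E2 and Tbxas1 makes thromboxane. Ptgs1 is the form that many cells carry all the time, and Ptgs2 is the form that macrophages make rapidly when they meet LPS. The receptors Ptger2 and Ptger4 bind prostaglandin E2 and Ptgir binds prostacyclin, and all of them couple to a rise in cyclic AMP. In the other branch, Alox5 (5-lipoxygenase) oxidises arachidonic acid to leukotriene A4, for which Alox5ap (the 5-lipoxygenase activating protein, FLAP) presents the substrate. Pol II over a gene marks engaged or elongating polymerase, and H3K27ac marks active promoters and enhancers. Neither measures RNA, protein or lipid.

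The promoter windows below are the RefSeq windows (GRCm38.p6) from 250 bases before to 50 after the listed start of 4 of the genes, read 5′ to 3′ on the gene's strand. Ptgs2, Ptger2 and Tbxas1 are shown because an HA-Nur77 region covered the listed start, and Alox5 because the region over its start had the largest log2 fall in Pol II. Capitals mark matches to the motifs searched.
Ptgs2, chr1:150099781-150100080, plus strand: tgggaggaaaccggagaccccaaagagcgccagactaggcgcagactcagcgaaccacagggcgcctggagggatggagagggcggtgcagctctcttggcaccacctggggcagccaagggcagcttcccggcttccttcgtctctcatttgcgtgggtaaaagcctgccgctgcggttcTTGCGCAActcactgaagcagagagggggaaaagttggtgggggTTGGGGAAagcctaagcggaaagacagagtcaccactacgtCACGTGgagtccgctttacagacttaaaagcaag
Ptger2, chr14:44987861-44988160, plus strand: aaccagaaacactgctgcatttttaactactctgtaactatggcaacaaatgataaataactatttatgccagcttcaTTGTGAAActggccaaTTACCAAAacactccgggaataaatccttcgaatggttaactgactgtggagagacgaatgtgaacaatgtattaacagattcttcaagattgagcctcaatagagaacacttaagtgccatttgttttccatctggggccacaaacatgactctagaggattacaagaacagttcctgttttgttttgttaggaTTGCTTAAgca
Tbxas1, chr6:38918736-38919035, plus strand: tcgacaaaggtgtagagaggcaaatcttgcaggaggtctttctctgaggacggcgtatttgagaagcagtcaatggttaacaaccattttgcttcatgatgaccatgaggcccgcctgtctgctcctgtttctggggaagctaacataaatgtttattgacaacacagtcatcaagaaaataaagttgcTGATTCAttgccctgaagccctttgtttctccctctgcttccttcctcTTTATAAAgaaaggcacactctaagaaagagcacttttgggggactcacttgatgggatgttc
Alox5, chr6:116461129-116461428, minus strand: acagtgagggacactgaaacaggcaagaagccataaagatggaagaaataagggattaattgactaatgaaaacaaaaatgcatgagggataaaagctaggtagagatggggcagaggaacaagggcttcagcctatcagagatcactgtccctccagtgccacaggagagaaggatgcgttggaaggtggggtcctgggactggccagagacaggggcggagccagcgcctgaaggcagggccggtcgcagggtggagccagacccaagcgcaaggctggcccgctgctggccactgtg
Both strands were searched for the Nur77 monomer element NBRE (AAAGGTCA), the cyclic AMP element CRE (TGACGTCA), AP-1 (TGANTCA), the E-box (CACGTG), C/EBP (TTNNGNAA), the TATA box (TATAAA) and an NF-kB motif, in the windows of the 8 genes that have one. The Ptgs2 window held an E-box 17 to 22 bases after the start and C/EBP letters 69 to 62 and 25 to 18 bases before it. C/EBP letters also occurred in the Ptger2 window, at 172 to 165 and 156 to 149 bases before and 40 to 47 bases after the start, and once in that of Ptges, 198 to 191 bases before it. Tbxas1 had an AP-1 match 61 to 55 bases before the start and a pair of overlapping TATA matches on opposite strands between 13 and 6 bases before it. The windows of Alox5, Ptger4, Ptgir and Ptgs1 held none of these letters. NBRE letters were in 0 of the 8 windows and in 1.51% of all 32851 windows, CRE in 0 and 1.79%, and the NF-kB motif in 0 and 4.51%. AP-1 was in 1 of the 8 and in 7.81% of all windows, the E-box in 1 and 7.15%, the TATA box in 1 and 13.6%, and C/EBP in 3 and 40.7%. A match is a description of the letters and no proof of binding.

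The values are called scaled tags: the deposited tags, normalized to 10 M mapped tags, were added up over a region's called peaks and divided by the library's scaling factor. The HA libraries held 6.41 to 18.2 M mapped tags, those of Pol II 11.9 to 23.1 M, those of H3K27ac 22.3 to 28.4 M and the inputs 14.02 to 23.4 M. Across regions, the Pearson r between replicates was 0.746 to 0.928 in HA, 0.939 to 0.956 in Pol II and 0.980 to 0.987 in H3K27ac. In HA replicate 3 of both conditions the called peaks were narrow (a median of 342 and 426 bp, against 826 to 1016 bp in the others), and untreated Nur77 Pol II replicate 1 had a listed fragment length of 1550 bp, against 174 to 318 bp in the other Pol II libraries. In 5 H3K27ac libraries HOMER's local filter on peaks was switched off, per the file headers. In the other 3 it was not (replicate 1 of GFP LPS, of untreated Nur77 and of untreated GFP). These 3 are called locally filtered, and results are also given without them. Markers were checked: 8 of 8 macrophage markers had a Pol II and an H3K27ac region in every library. Of 22 markers of other cell types 15 had no Pol II region and 16 no H3K27ac region in any library. Of the same 22, 4 had a Pol II region and 5 an H3K27ac region in every library (Cd4, Cd79a, Cdh5 and Gfap in both, and Krt8 in H3K27ac). The cells were measured in bulk, so a change in every cell and a change in the share of cells cannot be told apart.

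One hour of LPS was followed by calls in both directions among the 9 genes. Pol II and H3K27ac rose over Ptgs2 and over the long upstream region of Ptges, and fell over Alox5, Alox5ap and several sites within Tbxas1, in both lines. H3K27ac also fell at Ptgs1 in both lines. Differences were tested with limma on log2(scaled tags + 1), and a region is said to have risen or fallen where the p-value, adjusted by the Benjamini-Hochberg method over all tested regions of the target, was below 0.05. Testing needed a peak in every library of the target, which left 18 of the 32 Pol II regions, 21 of the 45 H3K27ac regions and 12 of the 42 HA regions. Of these, Tbxas1 alone held 8 of the Pol II, 10 of the H3K27ac and 6 of the HA regions. Some of them lay over the neighbouring gene Hipk2. The counts and medians here are of regions and not of genes, so they weigh Tbxas1 most. With LPS in Nur77 cells, 2 of the 18 Pol II regions rose and 6 fell, where 30.2% of all tested Pol II regions were called (15.2% higher and 15% lower). In GFP cells 2 rose and 7 fell, where 18.6% of all were called (10% higher and 8.55% lower). With the replicate number as a block, which pairs Pol II libraries of the same number, 3 rose and 8 fell in Nur77 cells, where 47.9% of all were called (24.3% higher and 23.6% lower). In GFP cells 2 rose and 8 fell, where 35.5% were called (18.3% higher and 17.2% lower). All SEs and intervals in this report are those of the fit without the block, also where a p-value with the block is given. Leaving out untreated Nur77 replicate 1 leaves 1 library in that group. With the block, the log2 changes in Nur77 cells were then 5.64 at Ptgs2 and 3.10 at the long Ptges region. They were -3.67 at the Alox5 start and -1.97 at the lower end of Alox5ap. Calls with the block that were lost in this fit are named below. The median log2 change of the 18 was -0.75 in Nur77 cells and -0.53 in GFP cells, against 0.01 and 0.01 for all tested Pol II regions. For H3K27ac, 4 of 21 regions rose and 13 fell with LPS in Nur77 cells, where 55.6% of all were called (28.5% higher and 27.1% lower), and 5 rose and 12 fell in GFP cells, where 53% were called (27.5% higher and 25.5% lower). The median change of the 21 was -0.48 in Nur77 cells and -0.51 in GFP cells, against 0.02 and 0.01 for all. Without the 3 locally filtered libraries, 4 rose and 11 fell in Nur77 cells, where 42.4% of all were called, and 4 rose and 9 fell in GFP cells, where 28.7% were called. Without scaling factors the median of all regions moved to -0.40 in Nur77 and -0.15 in GFP cells for Pol II, and to -0.33 and -0.32 for H3K27ac, so changes are relative to the scaled median.

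**Figure D1:**
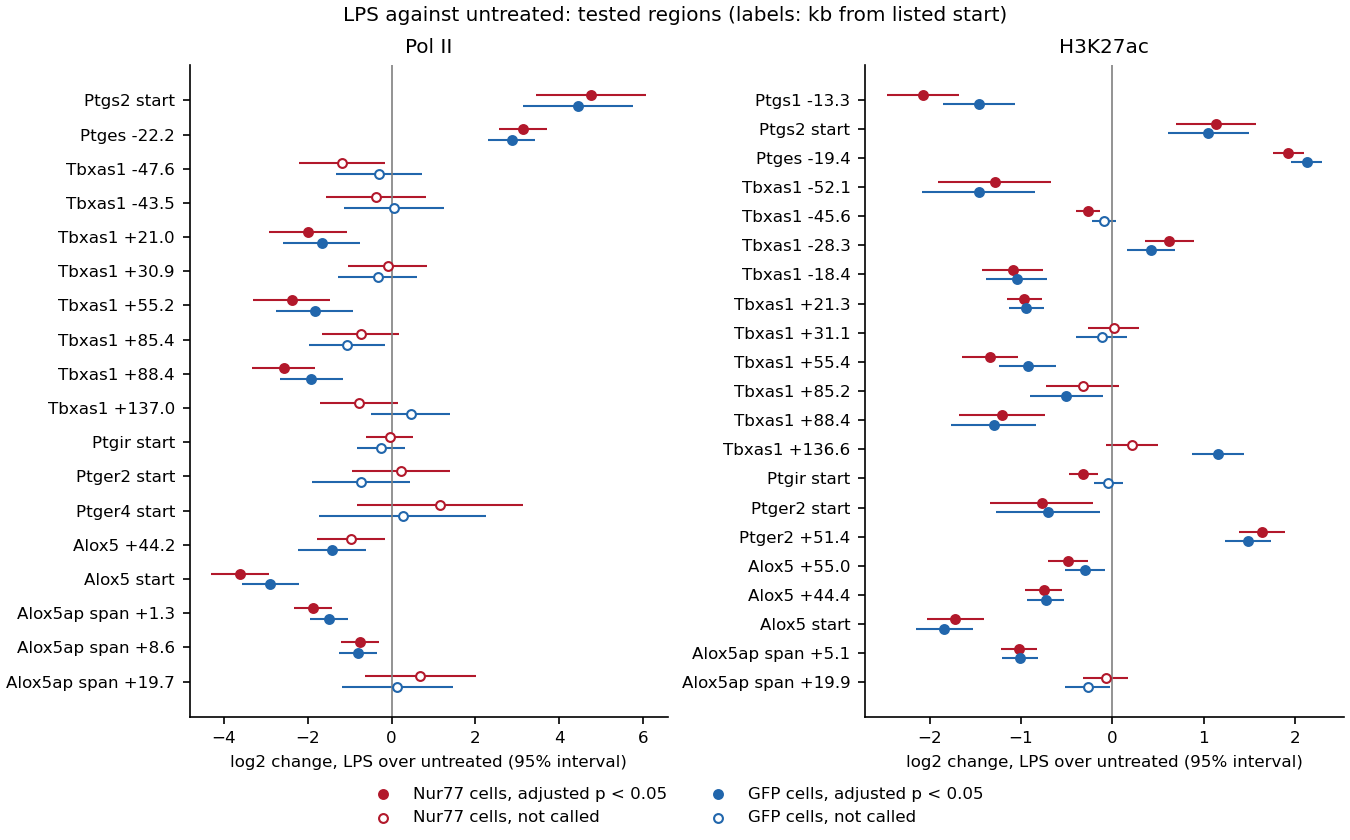
The log2 change with LPS over untreated cells (x axis, with its 95% interval) for each tested region of the 9 genes (rows, labelled by kb from the listed start), in Nur77 cells (red) and GFP cells (blue), for Pol II and H3K27ac. Filled points have an adjusted p below 0.05. Ptgs2 and Ptges lie to the right of 0 in both lines. Alox5 and Alox5ap lie to the left, except the Pol II region 19.7 kb above the lower end of the Alox5ap span.

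Among the cyclooxygenases, Ptgs2 had the largest log2 rise in Pol II among the tested regions of the 9 genes. Its single Pol II region (chr1:150099094-150109895, from before the start to past the end of the gene, also over the antisense gene Ptgs2os) held 529.5 and 1066 scaled tags in the Nur77 LPS libraries, against 39.0 and 18.2 in untreated Nur77 cells. In GFP cells it held 214 and 598 after LPS and 18.0 and 13.2 untreated. All 4 LPS libraries lay far above all 4 untreated ones, although the replicates of a group differed from each other. The log2 change was 4.76 ± 0.57 (SE) in Nur77 cells (adjusted p = 0.00107, limma), which is 27.2-fold on the log2(scaled tags + 1) scale, and 4.45 ± 0.57 (SE) in GFP cells (adjusted p = 0.00205, limma). The length covered by called peaks grew with it, to a mean of 10.2 kb after LPS against 1.36 kb untreated in Nur77 cells, and to 8.45 kb against 0.78 kb in GFP cells. Per base of called peak the log2 change was 1.46 in Nur77 cells (adjusted p = 0.0113, limma) and 1.12 in GFP cells, where the call was lost (adjusted p = 0.0573, limma). An input region in the GFP LPS input overlapped this Pol II region, at 6.62 normalized tags. Reads of Ptgs2 and Ptgs2os cannot be told apart here.

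H3K27ac at the Ptgs2 start (chr1:150099081-150101430) rose less steeply. It was 72.3 and 64.2 in the Nur77 LPS libraries against 31.2 and 29.9 untreated, and 40.3 and 45.8 in the GFP LPS libraries against 17.4 and 23.6 untreated. LPS and untreated libraries did not overlap within a line, and the log2 change was 1.13 ± 0.20 (SE) in Nur77 cells (adjusted p = 0.000516, limma) and 1.05 ± 0.20 (SE) in GFP cells (adjusted p = 0.000959, limma). Per base the change was 0.31 in Nur77 cells, no longer called (adjusted p = 0.0701, limma), and 0.43 in GFP cells (adjusted p = 0.0165, limma). The other H3K27ac region over the gene, near its end, was called in 1 library only.

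Ptgs1, the other cyclooxygenase, lost acetylation. Its lead H3K27ac region, the one with the highest mean over the gene, was at the lower end of the RefSeq span (chr2:36215797-36218420), 13.3 kb before the listed start. This region had 24.1 and 19.0 scaled tags after LPS and 93.9 and 92.6 untreated in Nur77 cells, and 36.3 and 28.9 after LPS and 96.3 and 85.5 untreated in GFP cells. Every LPS library was far below the lowest untreated one. The log2 change was -2.07 ± 0.18 (SE) in Nur77 cells (adjusted p = 1.71e-06, limma) and -1.46 ± 0.18 (SE) in GFP cells (adjusted p = 3.3e-05, limma), and per base -1.17 and -0.94, called in both lines. H3K27ac over the listed start itself had 11.2 and 6.75 after LPS against 53.5 and 54.6 in untreated Nur77 cells, and no peak in either GFP LPS library against 33.6 and 31.6 in untreated GFP cells. Pol II at Ptgs1 was called in 3 regions, none of them in every library, so none was tested. Over the start it had 8.11 and no peak after LPS and 16.9 and 70.7 untreated in Nur77 cells, and 10.0 and 10.8 after LPS and 37.2 and 52.3 untreated in GFP cells. The remaining 6 H3K27ac regions of Ptgs1 lay between 5.61 and 33.5 scaled tags in the libraries where they were called.

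**Figure D2:**
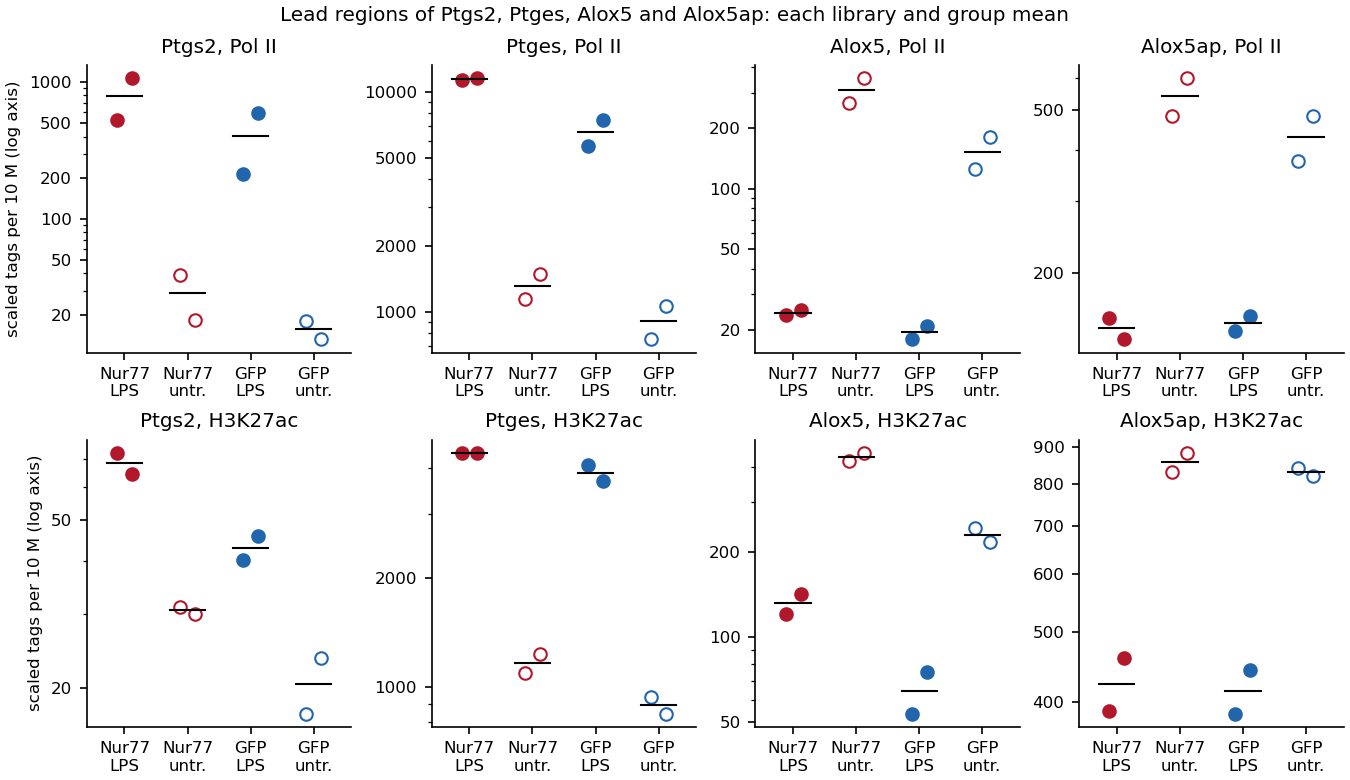
Scaled tags per 10 M (y axis, logarithmic) in the lead Pol II (top) and H3K27ac (bottom) regions of Ptgs2, Ptges, Alox5 and Alox5ap, 1 point for each library and a line at the group mean (n = 2). LPS libraries (filled) lie above untreated ones (open) at Ptgs2 and Ptges and below them at Alox5 and Alox5ap, in Nur77 cells (red) and GFP cells (blue).

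Of the genes that rose, the terminal synthase Ptges was given the regions with the largest amounts of both marks. Its lead Pol II region (chr2:30911639-30939451) did not cover the listed start: it was centred 22.2 kb before that start and took in the upper end of the RefSeq span at 30931020, with the pseudogene Gm13400. This region held 11343 and 11549.9 scaled tags after LPS and 1136 and 1484 untreated in Nur77 cells, and 5688 and 7432 after LPS and 747 and 1061 untreated in GFP cells. Each LPS library exceeded every untreated one. The log2 change was 3.14 ± 0.25 (SE) in Nur77 cells (adjusted p = 0.000209, limma), which is 8.81-fold, and 2.87 ± 0.25 (SE) in GFP cells (adjusted p = 0.000436, limma). Per base it was 1.85 and 1.63, still called in both. Within the RefSeq span there were 3 small Pol II regions, 2 after the listed start and 1 centred 7.5 kb before it, called only in LPS libraries, with at most 29.6 scaled tags. None of the Pol II or H3K27ac regions given to Ptges covered its listed start. The long Pol II and H3K27ac regions are shared with Gm13400, so their tags cannot be given to Ptges alone.

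H3K27ac over the same Ptges stretch (chr2:30911307-30934104) had 4410.4 and 4422 scaled tags after LPS and 1093 and 1237 untreated in Nur77 cells, and 4089.7 and 3699 after LPS and 939 and 845 untreated in GFP cells. The replicates were close to each other and the conditions well apart. H3K27ac rose by 1.92 ± 0.08 (SE) on the log2 scale in Nur77 cells (adjusted p = 6.51e-09, limma) and by 2.12 ± 0.08 (SE) in GFP cells (adjusted p = 3.06e-09, limma), and per base by 0.72 and 0.72. The Nur77 LPS input had a region of 6.97 normalized tags inside both long regions. The other 4 H3K27ac regions of Ptges were called only in LPS libraries, with at most 10.7 scaled tags.

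Tbxas1, which makes thromboxane, has a long RefSeq span and held 15 Pol II, 15 H3K27ac and 17 HA regions. Its lead Pol II and H3K27ac regions lay over the start of the neighbouring kinase gene Hipk2, and its lead HA region lay within the spans of both genes, so their tags cannot be given to Tbxas1. The Pol II lead (chr6:38873399-38877672) had 83.4 and 222 scaled tags after LPS and 131 and 240.0 untreated in Nur77 cells, and 164 and 289 after LPS and 167 and 262 untreated in GFP cells. These ranges overlapped and no change was called (log2 -0.38 ± 0.52 (SE), adjusted p = 0.613, and 0.06 ± 0.52 (SE), adjusted p = 0.958, limma). The H3K27ac lead (chr6:38869398-38877397) had 464 and 469 after LPS and 575 and 551 untreated in Nur77 cells, and 671 and 647 after LPS and 719 and 688 untreated in GFP cells. It fell slightly in Nur77 cells (-0.27 ± 0.06 (SE), adjusted p = 0.00245, limma, and 0.0659 without the 3 locally filtered libraries). In GFP cells the change was -0.09 ± 0.06 (SE) (adjusted p = 0.215, limma), and without scaling it was -0.43 and called.

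Within the gene, 3 Pol II sites fell in both lines. The site 21.0 kb after the listed start had 53.4 and 46.7 after LPS and 169.8 and 241 untreated in Nur77 cells, and 26.6 and 49.9 after LPS and 88.9 and 157 untreated in GFP cells. The site 55.2 kb after it had 8.5 and 8.68 after LPS and 40.2 and 59.3 untreated in Nur77 cells, and 8.45 and 9.45 after LPS and 26.1 and 45.1 untreated in GFP cells. At both, the LPS libraries were below all untreated libraries of the same line. The site 88.4 kb after it had 15.0 and 12.5 after LPS and 91.4 and 81.9 untreated in Nur77 cells, and 18.4 and 15.1 after LPS and 56.0 and 77.1 untreated in GFP cells. From the nearest to the farthest site, the log2 changes were -1.99 ± 0.40 (SE), -2.38 ± 0.40 (SE) and -2.58 ± 0.33 (SE) in Nur77 cells (adjusted p = 0.00857, 0.00411 and 0.0013, limma). In GFP cells they were -1.67 ± 0.40 (SE), -1.83 ± 0.40 (SE) and -1.92 ± 0.33 (SE) (adjusted p = 0.0252, 0.0172 and 0.00664, limma). Per base the farthest site stayed called in both lines, at -1.33 in Nur77 and -1.09 in GFP cells, and the other two did not (-0.67 and -0.74 in Nur77 cells, -0.56 and -0.79 in GFP cells). In other settings the call was lost at the nearest site in Nur77 cells (adjusted p = 0.0693 without replicate 2 of untreated Nur77) and in GFP cells (0.135 without replicate 2 of untreated GFP and 0.131 without replicate 1 of GFP LPS), and at the middle site in GFP cells (0.0648 where a peak in every library of any 1 group was enough, 0.0998 without replicate 2 of untreated GFP, 0.0929 without replicate 1 of GFP LPS and 0.056 without replicate 2 of GFP LPS). With the replicate block Pol II also fell 47.6 kb before the start in Nur77 cells (-1.19, adjusted p = 0.0242, limma), at a site also over Hipk2. In GFP cells it fell with the block 85.4 kb after the start (-1.06, adjusted p = 0.0308, limma). Both calls were lost with the block and without untreated Nur77 replicate 1 (adjusted p = 0.171 and 0.0525, limma). An input region lay under the middle site, and the farthest also overlaps the non-coding gene Gm38688. Over the start of the gene Gm33767, 30.9 kb after the Tbxas1 start, Pol II had no called change with LPS (-0.09 in Nur77 and -0.33 in GFP cells). The same held 137.0 kb after the start (-0.78 and 0.46). The 7 untested Pol II regions of Tbxas1 had between 6.38 and 71.2 scaled tags where they were called.

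H3K27ac fell at the same 3 sites of Tbxas1 and at 2 others upstream in both lines. At 21.3 kb after the start it had 136 and 151 after LPS and 287 and 273 untreated in Nur77 cells, and 119 and 129 after LPS and 241 and 236 untreated in GFP cells. At 55.4 kb after it, the values were 47.1 and 61.0 after LPS and 136 and 138 untreated in Nur77 cells, and 58.8 and 52.2 after LPS and 104 and 109 untreated in GFP cells. At 88.4 kb after it, they were 21.4 and 23.2 after LPS and 53.1 and 52.3 untreated in Nur77 cells, and 13.0 and 16.4 after LPS and 35.4 and 39.4 untreated in GFP cells. The log2 changes at these sites were -0.96 ± 0.09 (SE), -1.34 ± 0.14 (SE) and -1.21 ± 0.21 (SE) in Nur77 cells and -0.94 ± 0.09 (SE), -0.93 ± 0.14 (SE) and -1.30 ± 0.21 (SE) in GFP cells, with adjusted p at most 0.000482 (limma). The site 18.4 kb before the start had 35.4 and 28.8 after LPS and 68.4 and 70.0 untreated in Nur77 cells, and 54.8 and 52.6 after LPS and 105 and 119.9 untreated in GFP cells. Its log2 changes were -1.09 and -1.05. The site 52.1 kb before it, also over Hipk2 and so not to be given to Tbxas1 alone, had 16.4 and 28.6 after LPS and 57.0 and 52.0 untreated in Nur77 cells. In GFP cells it had 17.9 and 11.97 after LPS and 38.5 and 46.0 untreated. Its log2 changes were -1.29 ± 0.28 (SE) and -1.46 ± 0.28 (SE), and per base it was called in neither line (-0.29 and -0.29). An input region lay under this site and under that 55.4 kb after the start.

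Other acetylated sites of Tbxas1 did not follow this direction. The site 28.3 kb before the start had 80.6 and 94.1 after LPS and 53.8 and 58.8 untreated in Nur77 cells, and 221 and 193 after LPS and 146 and 163 untreated in GFP cells. It rose in both lines (0.62 ± 0.12 (SE), adjusted p = 0.000984, and 0.42 ± 0.12 (SE), adjusted p = 0.0117, limma), but not without scaling (0.27 and 0.09). In GFP cells the call was also lost in other settings (adjusted p = 0.605 without scaling, 0.0974 without replicate 1 of untreated GFP, 0.137 without replicate 1 of GFP LPS and 0.46 without the 3 locally filtered libraries), and per base it was lost in Nur77 cells (0.23, adjusted p = 0.126, limma). An input region overlapped it. The site 136.6 kb after the start, at the start of the non-coding gene Gm46989, had 81.0 and 81.7 after LPS and 65.4 and 74.6 untreated in Nur77 cells, and 120.4 and 126 after LPS and 59.2 and 50.5 untreated in GFP cells. It rose in GFP cells (1.16 ± 0.13 (SE), adjusted p = 1.6e-05, limma), and in Nur77 cells the change was 0.22 ± 0.13 (SE) (adjusted p = 0.18, limma). The site 85.2 kb after the start had 41.7 and 49.8 after LPS and 57.3 and 57.4 untreated in Nur77 cells, and 26.4 and 26.5 after LPS and 34.6 and 41.6 untreated in GFP cells. It fell in GFP cells (-0.51 ± 0.18 (SE), adjusted p = 0.0346, limma), where the call was lost per base and in several settings (adjusted p = 0.206 without replicate 2 of untreated GFP, 0.076 without replicate 1 of GFP LPS, 0.0777 without replicate 2 of GFP LPS, 0.0564 without replicate 1 of untreated Nur77, 0.057 without replicate 2 of untreated Nur77 and 0.15 without the 3 locally filtered libraries), and its change in Nur77 cells was -0.33 ± 0.18 (SE) (adjusted p = 0.15, limma). H3K27ac over the listed Tbxas1 start itself was not tested: it had 16.4 and 8.56 after LPS and 20.8 and 21.9 untreated in Nur77 cells, and no peak and 11.97 after LPS and 27.4 and 23.2 untreated in GFP cells. Of the other H3K27ac regions of Tbxas1, that over the start of Gm33767 had 154 to 214 scaled tags with no change called, and 4 were untested, with 6.05 to 35.8 where they were called.

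**Figure D3:**
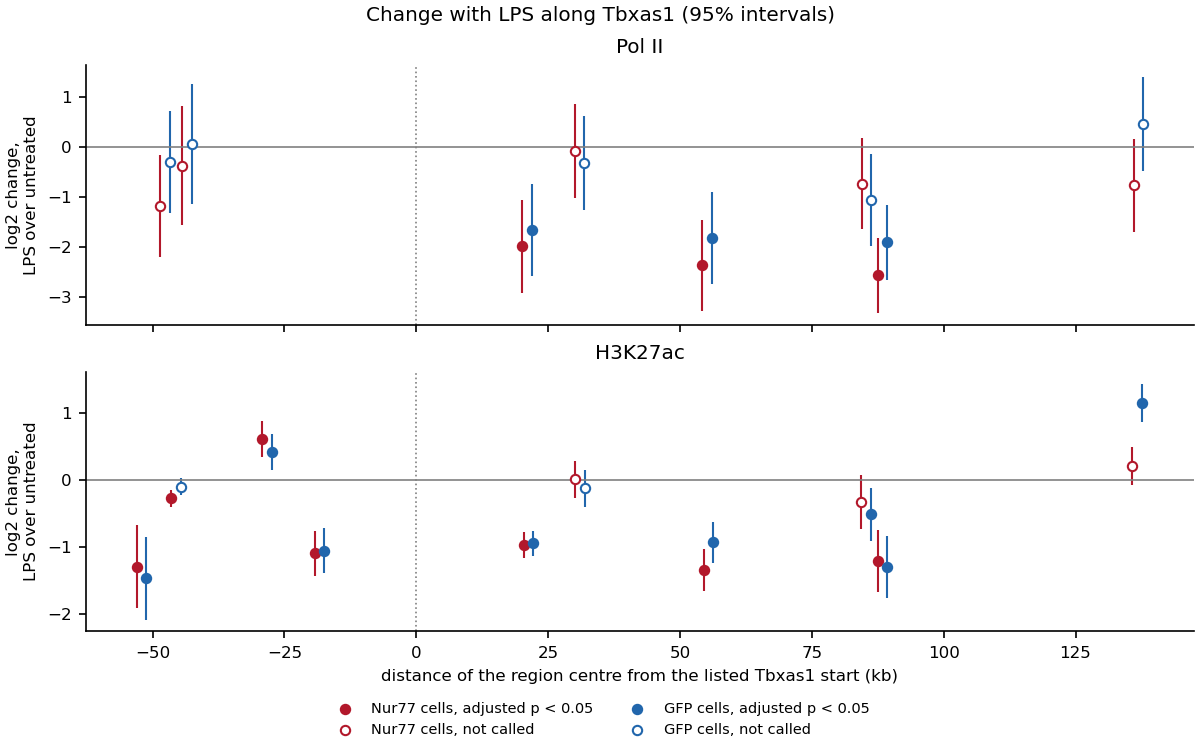
The log2 change with LPS over untreated cells (y axis, with its 95% interval) at each tested Pol II (top) and H3K27ac (bottom) region along Tbxas1, by distance of its centre from the listed start in kb, for Nur77 cells (red) and GFP cells (blue). Filled points have an adjusted p below 0.05. The sites 21.0, 55.2 and 88.4 kb after the start lie below 0 in both lines for both targets, and the last H3K27ac site rose in GFP cells.

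The receptor genes did not move together. Ptgir, the prostacyclin receptor gene, lies next to the calmodulin gene Calm3, and both lead regions spanned the 2 genes, so their tags cannot be given to Ptgir alone. Pol II there (chr7:16896573-16915208) had 1106 and 929 scaled tags after LPS and 1088 and 1008 untreated in Nur77 cells, and 2147 and 1447 after LPS and 2512 and 1750.2 untreated in GFP cells. No change with LPS was called, and the 95% intervals of the log2 change ran from -0.62 to 0.52 in Nur77 and from -0.82 to 0.32 in GFP cells. H3K27ac (chr7:16898543-16914716) had 936 and 829 after LPS and 1115 and 1081 untreated in Nur77 cells, and 1472 and 1322 after LPS and 1427 and 1456 untreated in GFP cells. It fell in Nur77 cells (-0.32 ± 0.07 (SE), adjusted p = 0.00279, limma). In GFP cells the change was -0.05 ± 0.07 (SE) (adjusted p = 0.607, limma), and without scaling it was -0.38 and called.

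Ptger2, a receptor for prostaglandin E2, gained acetylation at a distal site and, in summed tags only, lost it at its start. H3K27ac over the start (chr14:44985952-44989319) had 15.5 and 11.8 after LPS and 25.8 and 21.9 untreated in Nur77 cells, and 30.7 and 21.1 after LPS and 41.6 and 42.5 untreated in GFP cells. It fell in both lines (-0.77 ± 0.26 (SE), adjusted p = 0.0236, and -0.70 ± 0.26 (SE), adjusted p = 0.0372, limma). Neither call held per base (-0.18 and -0.32) or in every setting (in Nur77 cells adjusted p = 0.0651 where a peak in every library of any 1 group was enough, 0.132 without replicate 1 of untreated Nur77, 0.0505 without replicate 2 of untreated Nur77, 0.109 without replicate 2 of Nur77 LPS and 0.201 without the 3 locally filtered libraries, in GFP cells 0.0914 where a peak in every library of any 1 group was enough, 0.121 without replicate 1 of untreated GFP, 0.131 without replicate 2 of untreated GFP, 0.223 without replicate 2 of GFP LPS, 0.0506 without replicate 1 of untreated Nur77 and 0.122 without the 3 locally filtered libraries). A distal region between genes (chr14:45036547-45042465), 32.7 kb past the gene, had 447 and 395 after LPS and 149.6 and 121 untreated in Nur77 cells, and 456 and 442 after LPS and 147 and 174 untreated in GFP cells. All LPS libraries were well above all untreated ones, and the rise was 1.64 ± 0.11 (SE) in Nur77 cells (adjusted p = 2.85e-07, limma) and 1.48 ± 0.11 (SE) in GFP cells (adjusted p = 6.26e-07, limma). Per base it was 1.21 and 1.14, called in both. The region is given to Ptger2 only because that is the nearest gene. A further H3K27ac region, 1.3 kb past the gene (chr14:45005131-45006894), had a peak in 5 of 8 libraries and was not tested. It had 18.5 and 23.8 after LPS and no peak untreated in Nur77 cells. In GFP cells it had 12.8 and 26.7 after LPS and no peak and 8.88 untreated. The called HA region described below lies within it.

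Pol II at Ptger2 was low. Over the start it had 14.6 and 14.1 after LPS and 6.91 and 20.9 untreated in Nur77 cells, and 29.1 and 19.1 after LPS and 40.6 and 39.1 untreated in GFP cells, with no change called. Its lead Pol II region, just past the gene (chr14:45004772-45007398), had 36.0 and 17.9 after LPS and no peak and 6.97 untreated in Nur77 cells, and 162 and 55.4 after LPS and 56.9 and 21.2 untreated in GFP cells. Each LPS value there was above that of the untreated library with the same line and number, and the region was not tested because 1 library had no peak. Ptger4, the other prostaglandin E2 receptor gene, had 1 Pol II region over its start (chr15:5242055-5245313), with 45.4 and 92.2 after LPS and 14.8 and 54.0 untreated in Nur77 cells, and 30.1 and 90.7 after LPS and 21.3 and 86.7 untreated in GFP cells. Replicate 2 was above replicate 1 in every group, and the groups overlapped. The change was 1.16 ± 0.86 (SE) in Nur77 cells (adjusted p = 0.342, limma, 0.0136 with the replicate block, and 0.094 with the block and without untreated Nur77 replicate 1) and 0.27 ± 0.86 (SE) in GFP cells (adjusted p = 0.865, limma). None of the 4 H3K27ac regions of Ptger4 was called in every library. The lead one, over the start, had 7.76 and 21.0 after LPS and 13.0 and 8.59 untreated in Nur77 cells, and 11.1 and no peak after LPS and 15.2 and 9.13 untreated in GFP cells.

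Both marks fell at both genes of the leukotriene branch, and the Alox5 start had the largest log2 fall in Pol II among the tested regions. Its lead Pol II region covered the start and the first part of the gene (chr6:116455191-116462057) and had 23.5 and 24.9 scaled tags after LPS and 268 and 353 untreated in Nur77 cells, and 17.9 and 20.9 after LPS and 125 and 180.5 untreated in GFP cells. All LPS libraries were close to each other and far below the untreated ones. The log2 change was -3.61 ± 0.30 (SE) in Nur77 cells (adjusted p = 0.00026, limma), which is 12.2-fold lower on the log2(scaled tags + 1) scale, and -2.89 ± 0.30 (SE) in GFP cells (adjusted p = 0.000894, limma). The covered length shrank to 0.89 kb after LPS against 6.21 kb untreated in Nur77 cells, and to 0.78 kb against 3.76 kb in GFP cells. Per base the change was -1.03 in Nur77 cells (adjusted p = 0.0181, limma) and -0.67 in GFP cells, where the call was lost (adjusted p = 0.138, limma). A Pol II site near the end of the gene had 33.2 and 28.8 after LPS and 56.2 and 66.2 untreated in Nur77 cells, and 22.9 and 41.6 after LPS and 79.0 and 89.5 untreated in GFP cells. It fell in GFP cells (-1.42 ± 0.35 (SE), adjusted p = 0.0283, limma), though not when 1 of several libraries was left out (adjusted p = 0.0814 without replicate 1 of untreated GFP, 0.123 without replicate 2 of untreated GFP, 0.151 without replicate 1 of GFP LPS, 0.0525 without replicate 1 of untreated Nur77 and 0.0532 without replicate 2 of untreated Nur77) or per base. In Nur77 cells it changed by -0.96 ± 0.35 (SE) (adjusted p = 0.0744, limma, 0.0293 with the replicate block, and 0.133 with the block and without untreated Nur77 replicate 1).

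H3K27ac over the Alox5 start (chr6:116454280-116461476) had 121 and 142 after LPS and 418 and 449 untreated in Nur77 cells, and 53.5 and 74.9 after LPS and 242 and 217 untreated in GFP cells. The conditions were well separated in each line, and the log2 change was -1.72 ± 0.14 (SE) in Nur77 cells (adjusted p = 1.11e-06, limma) and -1.84 ± 0.14 (SE) in GFP cells (adjusted p = 6.61e-07, limma). Per base it was -1.35 and -1.14, called in both. The site 44.4 kb after the start had 135 and 122 after LPS and 215 and 220.1 untreated in Nur77 cells, and 135 and 126 after LPS and 227 and 206 untreated in GFP cells, with called log2 changes of -0.75 and -0.73. Another H3K27ac region, 7.5 kb after the start, was called in 1 library only. A site just past the end of the gene, reaching only its 1 kb flank and shared with Marchf8, cannot be given to Alox5 alone. It had 114 and 103 after LPS and 153 and 151 untreated in Nur77 cells, and 124 and 138 after LPS and 155 and 167 untreated in GFP cells. It fell by less (-0.48 ± 0.10 (SE), adjusted p = 0.00152, and -0.30 ± 0.10 (SE), adjusted p = 0.0256, limma). The call in GFP cells did not hold in 3 settings (adjusted p = 0.144 without replicate 2 of untreated GFP, 0.113 without replicate 1 of GFP LPS and 0.257 without the 3 locally filtered libraries), and that in Nur77 cells did not hold per base (adjusted p = 0.0592, limma).

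Alox5ap had a broad block of both marks from the lower end of its RefSeq span. Pol II in its lead region (chr5:149263742-149268847) was 156 and 138 after LPS and 484 and 597 untreated in Nur77 cells, and 145 and 158 after LPS and 375 and 482 untreated in GFP cells. No LPS library reached any untreated one, and the log2 change was -1.87 ± 0.20 (SE) in Nur77 cells (adjusted p = 0.000632, limma) and -1.49 ± 0.20 (SE) in GFP cells (adjusted p = 0.00233, limma). Per base it was -1.16 and -0.73, called in both. The next Pol II region (chr5:149271246-149276039) had 119.9 and 100.4 after LPS and 176 and 197 untreated in Nur77 cells, and 116 and 125 after LPS and 207 and 214 untreated in GFP cells. It fell in both lines (-0.76 ± 0.20 (SE) and -0.81 ± 0.20 (SE)), but per base the change was 0.55 and -0.21, with neither called. An input region of 7.49 normalized tags in untreated GFP cells lay under it, and the call was lost when single libraries were left out (adjusted p in Nur77 cells = 0.0786 without replicate 1 of untreated Nur77, 0.149 without replicate 2 of untreated Nur77 and 0.0996 without replicate 2 of Nur77 LPS, in GFP cells = 0.0906 without replicate 1 of untreated GFP, 0.114 without replicate 2 of untreated GFP, 0.123 without replicate 1 of GFP LPS, 0.0666 without replicate 2 of GFP LPS, 0.0556 without replicate 1 of untreated Nur77 and 0.0566 without replicate 2 of untreated Nur77). H3K27ac over the whole block (chr5:149264011-149276142) had 388 and 459 after LPS and 831 and 885 untreated in Nur77 cells, and 385 and 443 after LPS and 843 and 820.5 untreated in GFP cells. The values of the lines overlapped in both conditions, and the log2 change was -1.02 ± 0.09 (SE) in Nur77 and -1.01 ± 0.09 (SE) in GFP cells (adjusted p = 1.67e-06 and 1.93e-06, limma), and called per base too (-1.01 and -0.86). The site 19.9 kb above the lower end of the span had no called change (-0.07 ± 0.11 (SE) and -0.27 ± 0.11 (SE)). Another H3K27ac region of the gene was called in 1 library only. The last Pol II region, 19.7 kb above that end, had 20.2 and 12.3 after LPS and 6.28 and 13.9 untreated in Nur77 cells. In GFP cells it had 11.5 and 21.6 after LPS and 9.40 and 21.4 untreated. No change was called there (0.69 ± 0.58 (SE), adjusted p = 0.401, and 0.14 ± 0.58 (SE), adjusted p = 0.898, limma).

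At least 1 HA-Nur77 region was given to each of the 9 genes. The share of all genes with such a region was not computed. Ptges, Ptgir, Ptger4 and Alox5ap had no HA region with a peak in every library. The inputs had no DSG and GFP cells had no HA library, so signal independent of the tag cannot be told apart. The HA change with LPS had the sign of the Pol II change at Ptgs2 and Alox5, but not at every tested region. At the Gm33767 start in Tbxas1, HA changed by 0.45 and Pol II by -0.09 in Nur77 cells. Over the Ptgs2 start (chr1:150099467-150100545) HA-Nur77 had 46.8, 66.0 and 37.8 scaled tags in the LPS libraries and 25.3, 26.3 and 17.4 in the untreated ones, which do not overlap. Within the first part of Alox5 (chr6:116455482-116456498, 5.2 kb after the start) it had 114, 84.4 and 99.6 after LPS and 203, 175 and 337 untreated, where the untreated libraries held the highest HA values of any tested region of the 9 genes. The log2 changes were 1.077 ± 0.29 (SE) at Ptgs2 (adjusted p = 0.0624, limma, n = 3 per condition) and -1.21 ± 0.30 (SE) at Alox5 (adjusted p = 0.0506, limma). Neither passed the threshold without a block. At Alox5 it did in 3 other settings (adjusted p = 0.0353 where a peak in every library of any 1 group was enough, 0.04999 with input regions left out and 0.0341 without replicate 2 of untreated). The same-numbered HA libraries deviated together (correlations of 0.48 to 0.83), and with the replicate number as a block the adjusted p was 1.74e-05 at Ptgs2 and 2.16e-09 at Alox5 (limma).

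In the fit without the block, 1 of the 12 tested HA regions rose with LPS and 0 fell, where 4.64% of all tested HA regions were called (3.28% higher and 1.35% lower). At an unadjusted p below 0.05, 4 were higher and 4 lower. The share of all regions at an unadjusted p below 0.05 was not computed, here or for the counts below and in the wider list. Such counts therefore cannot be set against the shares at the adjusted threshold. With the block 5 rose and 6 fell, where 40.4% of all were called (20.4% higher and 20% lower). Without replicate 3 in either group 0 were called, where 0% of all were. With the block and without replicate 3, 4 were higher and 5 lower, where 33.8% of all were called. The median log2 change of the 12 was -0.21, against -0.01 for all. The called region lay 1.5 kb past the end of Ptger2 (chr14:45005343-45006380), inside the Pol II lead region of that gene. It had 118, 72.1 and 90.3 in the LPS libraries and 50.0, 32.5 and 21.3 in the untreated ones, with no overlap, and rose by 1.46 ± 0.34 (SE) (adjusted p = 0.041, limma, and 1.17e-08 with the block). This call did not hold in other settings (adjusted p = 1 without scaling, 0.0874 without replicate 1 of untreated, 0.0513 without replicate 2 of untreated, 0.141 without replicate 3 of untreated, 0.171 without replicate 1 of LPS, 0.0924 without replicate 3 of LPS and 0.29 without replicate 3 in either group). The HA region inside the distal acetylated site of Ptger2 had 92.4, 144 and 70.6 after LPS and 65.8, 73.8 and 36.7 untreated (0.79 ± 0.35 (SE), adjusted p = 0.238, limma, and 6.45e-05 with the block).

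Of the Ptgs1 sites, that at the lower span end had 61.4, 55.3 and 59.3 after LPS and 70.5, 84.7 and 78.7 untreated (-0.40 ± 0.25 (SE), adjusted p = 0.394, limma, 0.0382 with the block, and 0.076 with the block and without replicate 3 in either group). The site 29.1 kb after the start had 37.5, 28.1 and 42.6 after LPS and 72.9, 49.5 and 72.9 untreated (-0.83 ± 0.29 (SE), adjusted p = 0.128, limma, and 0.000172 with the block). The Tbxas1 lead, also over Hipk2, had 66.3, 50.6 and 53.2 after LPS and 92.3, 77.5 and 91.0 untreated (-0.61 ± 0.26 (SE), adjusted p = 0.205, limma, and 0.00146 with the block). At all of these sites the LPS libraries lay below the untreated ones. Of the other 5 tested Tbxas1 regions, with the block those 19.6 kb (-0.69 ± 0.32 (SE)) and 55.0 kb after the start (-0.83 ± 0.25 (SE)) were lower. Those 26.7 kb before it (0.87 ± 0.31 (SE)) and 31.4 kb after it (0.45 ± 0.31 (SE)) were higher. The last was not called when replicate 3 was also left out (adjusted p = 0.0932, limma). The one 18.6 kb before the start differed in neither fit (-0.02 ± 0.26 (SE)). These SEs are those without the block.

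**Figure D4:**
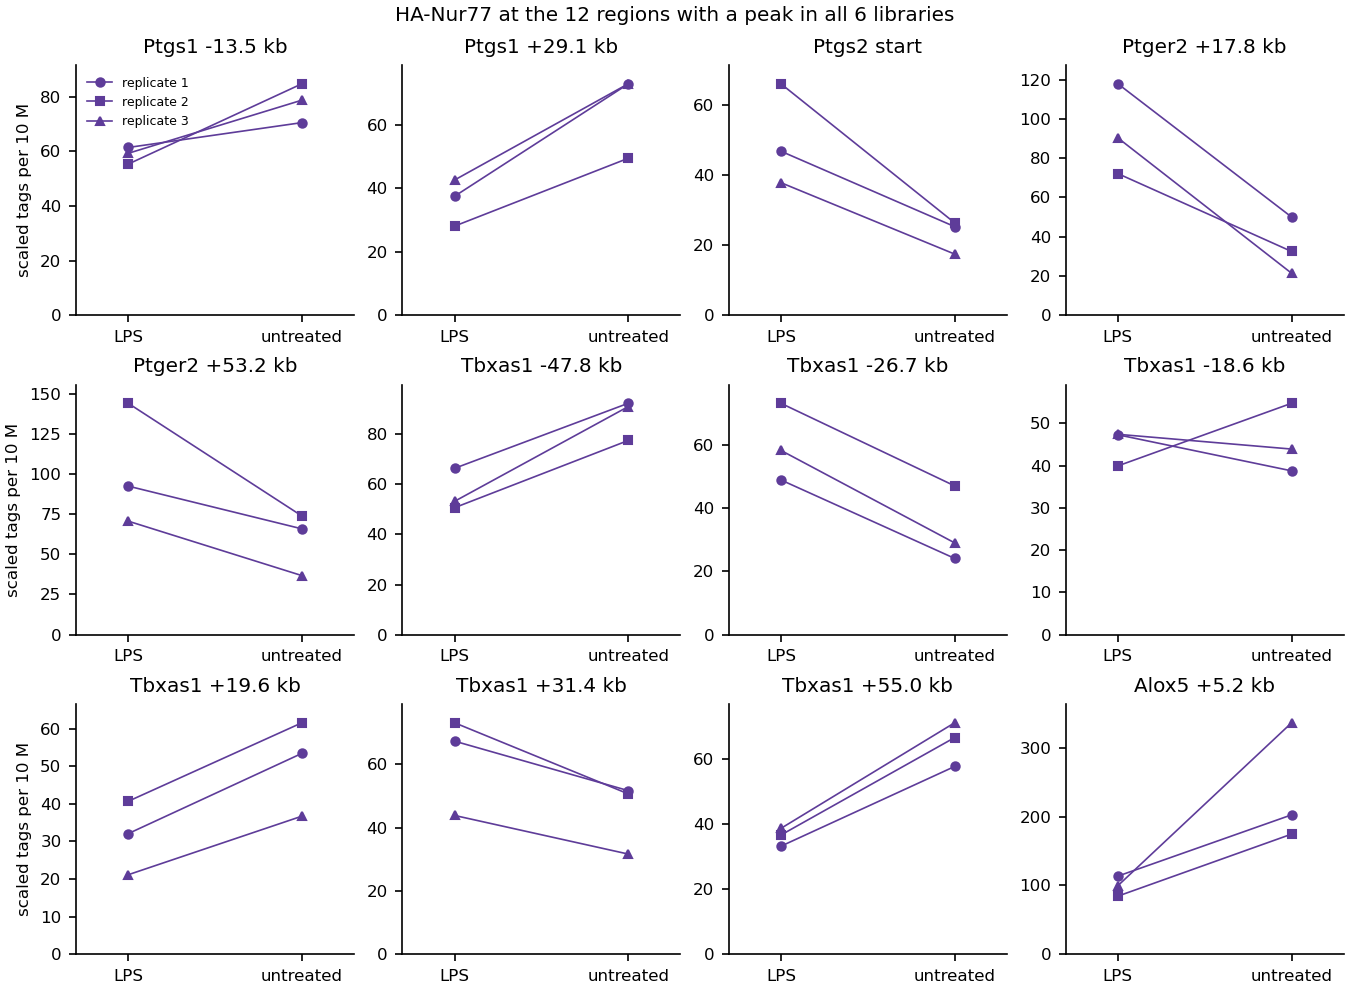
HA-Nur77 scaled tags per 10 M (y axis) in the 3 LPS and 3 untreated libraries of Nur77 cells at the 12 regions of these genes with a peak in all 6 libraries (panel titles give the distance from the listed start). Lines join libraries with the same replicate number. The 3 lines run the same way at 11 regions and not at the Tbxas1 site 18.6 kb before the start. How often they do so among all tested HA regions was not computed, so the count is only a description.

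Lead HA regions without a peak in every library were not tested. That of Ptges (chr2:30927034-30927944), inside the long acetylated region, had 192, no peak and 179.5 in the LPS libraries and 91.1, no peak and 75.6 in the untreated ones. The lead of Ptgir, just before its start, had 127, 86.7 and 139 after LPS and 96.4, no peak and 108 untreated, and that of Ptger2, over its start, had 23.4, 19.0 and no peak after LPS and 19.98, 27.2 and 21.9 untreated. Ptger4 had 20.1, 21.2 and 21.5 after LPS and no peak, no peak and 18.0 untreated, and Alox5ap had 31.6, no peak and 49.2 after LPS and 48.8, 60.8 and 89.0 untreated. HA at the listed Tbxas1 start was weak, with no peak, 14.3 and 14.9 after LPS and 18.2, no peak and no peak untreated. A peak in every LPS library and no untreated one was found in 2 of the 42 HA regions, where 4.62% of all HA regions had this pattern. They were a Ptges region (chr2:30912938-30913832) with 56.0, 79.2 and 51.4 scaled tags after LPS, and a Tbxas1 region (chr6:39054788-39055719, at the start of Gm46989) with 21.7, 31.9 and 26.7. The opposite pattern was found in 0 of the 42, against 0.654% of all. The 30 untested HA regions held 11.9 to 192 scaled tags where they were called.

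HA regions of these genes mostly overlapped H3K27ac and Pol II regions, as HA regions did elsewhere. Of the 19 with a peak in all 3 LPS libraries, 16 (84.2%) overlapped an H3K27ac region called in both Nur77 LPS libraries and 15 (78.9%) a Pol II region, against 78.5% and 60.03% of all 17427 such HA regions. Of the 17 with a peak in all 3 untreated libraries, 15 (88.2%) overlapped an untreated H3K27ac region and 13 (76.5%) an untreated Pol II region, against 85.4% and 59.1% of all 13614. Overlap meant at least 1 shared bp.

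Between the lines, H3K27ac differed at several of the genes and Pol II at none in the fit without the block. After LPS, H3K27ac was higher in Nur77 than in GFP cells at 3 of 21 regions and lower at 7, where 36% of all tested regions were called (16.5% higher and 19.5% lower). In untreated cells it was higher at 3 and lower at 5, where 30.8% were called (15.4% higher and 15.3% lower). Without the 3 locally filtered libraries it was higher at 2 and lower at 4 after LPS, where 20.6% were called. Untreated it was higher at 2 and lower at 3, where 13.8% were called. Whether these genes differ more often than other regions was not tested. Alox5 was acetylated more in Nur77 than in GFP cells over its start, by 1.04 ± 0.14 (SE) on the log2 scale after LPS (adjusted p = 0.000165, limma) and 0.92 ± 0.14 (SE) untreated (adjusted p = 0.000448, limma). At the Ptgs2 start the difference was 0.65 ± 0.20 (SE) after LPS (adjusted p = 0.025, limma) and 0.57 ± 0.20 (SE) untreated (adjusted p = 0.0512, limma). That after LPS was not called when some libraries were left out (adjusted p = 0.117 without replicate 1 of GFP LPS, 0.0507 without replicate 2 of GFP LPS, 0.118 without replicate 1 of Nur77 LPS and 0.154 without the 3 locally filtered libraries), and that in untreated cells was called in another setting (adjusted p = 0.0362 without replicate 2 of untreated GFP) and per base (0.53, adjusted p = 0.015, limma). The Ptges region was higher in untreated Nur77 than in untreated GFP cells (0.38 ± 0.08 (SE), adjusted p = 0.00265, limma), but not per base (0.04). After LPS it differed by 0.18 ± 0.08 (SE) (adjusted p = 0.0849, limma), and was called in 3 other settings (adjusted p = 0.0294 with the above-median peaks of each list, 0.0365 without replicate 1 of GFP LPS and 0.0374 without the 3 locally filtered libraries).

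H3K27ac was lower in Nur77 than in GFP cells at the shared Ptgir and Calm3 region (-0.66 ± 0.07 (SE) after LPS, adjusted p = 3.28e-05, and -0.39 ± 0.07 (SE) untreated, adjusted p = 0.00152, limma). Per base the untreated difference was not called (adjusted p = 0.0603, limma). The Ptger2 start was also lower (-0.86 ± 0.26 (SE) after LPS, adjusted p = 0.0213, and -0.80 ± 0.26 (SE) untreated, adjusted p = 0.0352, limma). Per base that difference went to 0.12 after LPS and -0.03 untreated, called in neither, and it was lost in other settings too (adjusted p after LPS = 0.062 where a peak in every library of any 1 group was enough, 0.162 without replicate 1 of GFP LPS, 0.105 without replicate 2 of Nur77 LPS and 0.337 without the 3 locally filtered libraries, and untreated = 0.0856 where a peak in every library of any 1 group was enough, 0.129 without replicate 1 of untreated GFP, 0.14 without replicate 2 of untreated GFP, 0.0804 without replicate 1 of untreated Nur77, 0.189 without replicate 2 of untreated Nur77 and 0.224 without the 3 locally filtered libraries). Ptgs1 was lower after LPS (-0.58 ± 0.18 (SE), adjusted p = 0.0263, limma), which was lost per base (-0.14) and in 4 other settings (adjusted p = 0.0536 where a peak in every library of any 1 group was enough, 0.159 without replicate 1 of GFP LPS, 0.127 without replicate 2 of Nur77 LPS and 0.37 without the 3 locally filtered libraries). In untreated cells its difference was 0.04 ± 0.18 (SE), with a 95% interval from -0.35 to 0.43.

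Along Tbxas1 the difference between the lines changed direction. H3K27ac was lower in Nur77 cells 28.3 kb before the start (-1.24 ± 0.12 (SE) after LPS and -1.44 ± 0.12 (SE) untreated), where all Nur77 libraries lay below all GFP libraries, with adjusted p at most 1.51e-05 (limma). It was also lower 18.4 kb before it (-0.73 ± 0.15 (SE) and -0.69 ± 0.15 (SE); after LPS adjusted p = 0.0691 without the 3 locally filtered libraries; in untreated cells 0.0586 without replicate 2 of untreated GFP and 0.101 without the 3 locally filtered libraries, and 0.126 per base, limma). Over the Hipk2 start it was -0.50 ± 0.06 (SE) after LPS and -0.32 ± 0.06 (SE) untreated (in untreated cells adjusted p = 0.136 per base and 0.0909 without the 3 locally filtered libraries, limma). The site 85.2 kb after the start was higher in Nur77 cells (0.76 ± 0.18 (SE) after LPS, adjusted p = 0.00653, and 0.58 ± 0.18 (SE) untreated, adjusted p = 0.0298, limma). That after LPS was lost without the 3 locally filtered libraries (adjusted p = 0.0651, limma). That in untreated cells was lost per base and in other settings (adjusted p = 0.0565 without scaling, 0.191 without replicate 1 of untreated GFP, 0.125 without replicate 1 of untreated Nur77, 0.132 without replicate 2 of untreated Nur77 and 0.419 without the 3 locally filtered libraries). At the start of Gm46989 it was lower after LPS (-0.59 ± 0.13 (SE), adjusted p = 0.00425, limma) and in untreated cells 0.35 ± 0.13 (SE) (adjusted p = 0.0642, limma). Alox5ap differed by 0.03 ± 0.09 (SE) after LPS and 0.04 ± 0.09 (SE) untreated, with 95% intervals from -0.16 to 0.23 and from -0.15 to 0.24.

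**Figure D5:**
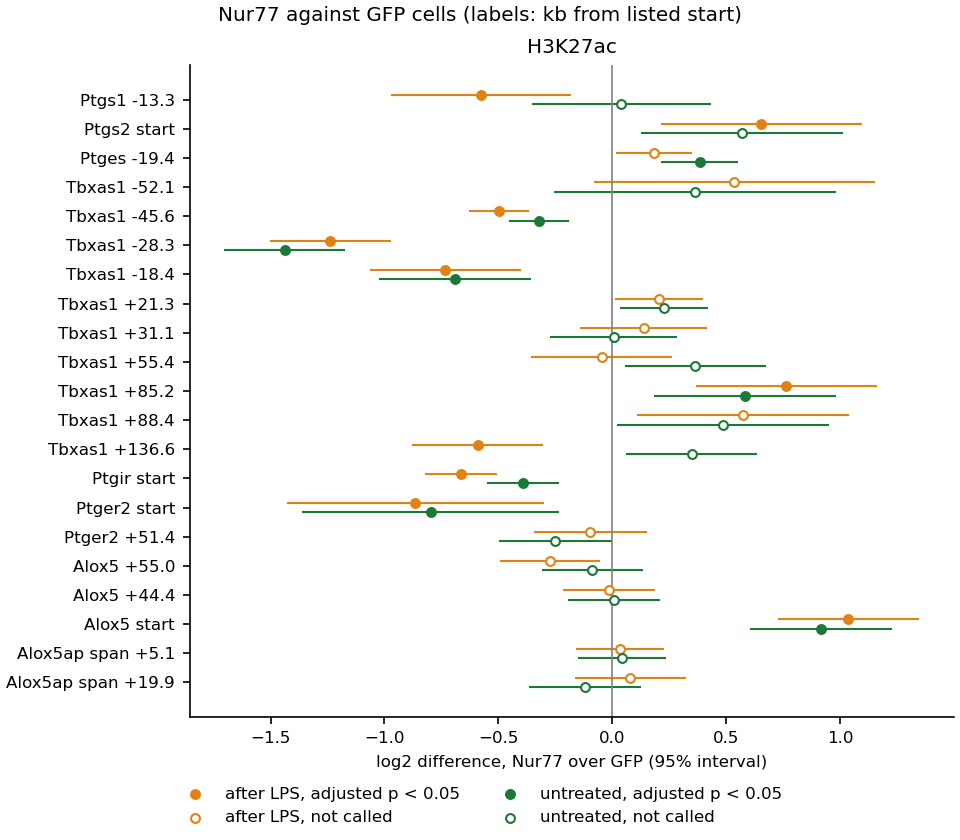
The log2 difference in H3K27ac of Nur77 over GFP cells (x axis, with its 95% interval) at the 21 tested regions of the 9 genes (rows, labelled by kb from the listed start), after LPS (orange) and untreated (green). Filled points have an adjusted p below 0.05. The Alox5 start lies to the right of 0 and the shared Ptgir region and the Tbxas1 site 28.3 kb before the start to the left, in both conditions.

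Pol II differed between the lines at 0 of 18 regions after LPS, where 1.52% of all tested regions were called (0.872% higher and 0.65% lower), and at 0 of 18 in untreated cells, where 0.17% were called (0.111% higher and 0.0585% lower). At an unadjusted p below 0.05, 2 were higher and 2 lower in each condition, and the share of all regions at that threshold was not computed. With the replicate block 2 were higher and 2 lower after LPS, where 12.8% of all were called (6.48% higher and 6.29% lower). In untreated cells 1 was higher and 1 lower, where 5.98% were called (2.71% higher and 3.27% lower, limma). SEs in this paragraph are those of the fit without the block. With the block and without untreated Nur77 replicate 1, the library with the long fragment length, 1 was higher and 1 lower after LPS and 0 were called untreated, where 9.1% and 0.263% of all were called. The shared Ptgir and Calm3 region was lower in Nur77 cells with the block, with differences of -0.80 ± 0.25 (SE) after LPS (adjusted p = 0.0145 with the block and 0.15 without, limma) and -1.001 ± 0.25 (SE) untreated (adjusted p = 0.0122 and 0.169, and 0.17 with the block and without that library). Ptges was higher in Nur77 cells after LPS by 0.82 ± 0.25 (SE) (adjusted p = 0.019 with the block, 0.143 without, and 0.0484 with the block and without that library), and Alox5 was higher in untreated Nur77 cells by 1.03 ± 0.30 (SE) (adjusted p = 0.0382 with the block, 0.211 without, and 0.277 with the block and without that library). For Ptgs2 the difference after LPS was 1.07 ± 0.57 (SE) (adjusted p = 0.384, limma, and 0.22 with the block), with a 95% interval from -0.25 to 2.39. Within Tbxas1 the other 2 called with the block after LPS were the sites 85.4 kb after the start (1.35 ± 0.40 (SE), adjusted p = 0.0301, and 0.0534 also without that library) and 137.0 kb after it (-1.28 ± 0.41 (SE), adjusted p = 0.0365, and 0.0586 also without that library).

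The LPS effect itself was compared between the lines. For Pol II 0 of 18 regions differed, where 0% of all were called, and 0 did at an unadjusted p below 0.05 (limma). For H3K27ac 0 of 21 differed, where 0.594% of all were called (0.118% higher and 0.476% lower). At an unadjusted p below 0.05, 3 were lower and 0 higher, with the share of all regions at that threshold not computed. The smallest adjusted p was 0.0503 at the Gm46989 start within Tbxas1, where the LPS effect in Nur77 cells was below that in GFP cells (log2 difference -0.94 ± 0.19 (SE)). For Ptgs2 the difference of the LPS effects was 0.31 ± 0.81 (SE) in Pol II, with a 95% interval from -1.56 to 2.18, and 0.08 ± 0.29 (SE) in H3K27ac, with an interval from -0.54 to 0.71. For Ptges it was 0.27 ± 0.35 (SE) in Pol II (interval -0.53 to 1.07) and -0.20 ± 0.11 (SE) in H3K27ac (interval -0.44 to 0.04). For Alox5 it was -0.72 ± 0.42 (SE) in Pol II (interval -1.69 to 0.25) and 0.12 ± 0.20 (SE) in H3K27ac (interval -0.32 to 0.56). These intervals still allow differences of the size of the smaller changes reported here.

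A wider list of 56 other genes of eicosanoid metabolism, transport and sensing was counted by 1 lead region each. With LPS, Pol II rose at 2 and fell at 8 of the 33 with a tested region in Nur77 cells, where 30.2% of all tested regions were called. In GFP cells it rose at 2 and fell at 4, where 18.6% were called. Summed over both directions, these counts are near the share of all regions. By direction, 15.2% of all regions rose and 15% fell in Nur77 cells, and 10% rose and 8.55% fell in GFP cells. Whether the list differs from all regions by direction was not tested. With the replicate block it rose at 4 and fell at 9 in Nur77 cells (47.9% of all regions called), and rose at 2 and fell at 8 in GFP cells (35.5%). The median change was -0.07 in Nur77 and -0.09 in GFP cells. Dpep2, a dipeptidase that turns leukotriene D4 into E4, rose by 2.103 ± 0.24 (SE) on the log2 scale in Nur77 and 1.74 ± 0.24 (SE) in GFP cells, in a region shared with Ddx28 and Dus2. The secreted phospholipase Pla2g5 rose by 1.34 ± 0.17 (SE) and 1.10 ± 0.17 (SE). Cysltr1, a cysteinyl leukotriene receptor, fell (-2.57 ± 0.32 (SE) and -2.79 ± 0.32 (SE)), as did the glutathione transferase family member Mgst2 (-1.90 ± 0.24 (SE) and -1.63 ± 0.24 (SE)). Ggt5, a gamma-glutamyl transferase that acts on leukotriene C4, fell in Nur77 cells (-2.06 ± 0.32 (SE)) and was -0.97 ± 0.32 (SE) in GFP cells, and the lysosomal phospholipase Pla2g15 fell in both (-1.43 ± 0.22 (SE) in Nur77 and -1.30 ± 0.22 (SE) in GFP cells).

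For H3K27ac, 9 of the 36 tested genes of the wider list rose with LPS and 13 fell in Nur77 cells, where 55.6% of all tested regions were called. In GFP cells 8 rose and 12 fell, where 53% were called. The medians were 0.06 in Nur77 and -0.04 in GFP cells. Dpep2 (0.92 ± 0.06 (SE) in Nur77 and 1.28 ± 0.06 (SE) in GFP cells) and Pla2g5 (0.59 ± 0.08 (SE) and 0.51 ± 0.08 (SE)) rose in both lines, as they did in Pol II. Ltb4r2, a receptor for leukotriene B4, fell in both lines (-1.22 ± 0.18 (SE) and -1.37 ± 0.18 (SE)). So did Ggt5 (-1.37 ± 0.25 (SE) and -0.73 ± 0.25 (SE)), the secreted phospholipase Pla2g10 (-1.29 ± 0.18 (SE) and -0.95 ± 0.18 (SE)), Cysltr1 (-1.04 ± 0.15 (SE) and -1.86 ± 0.15 (SE)) and the lipoxygenase Alox15 (-0.73 ± 0.10 (SE) and -1.22 ± 0.10 (SE)). Plaa, a phospholipase activator, rose in both lines (0.50 ± 0.08 (SE) and 0.38 ± 0.08 (SE)), in a region shared with Ift74. Fpr2, a receptor for formyl peptides and lipoxin A4, rose in Nur77 cells (0.76 ± 0.22 (SE)) and was 0.51 ± 0.22 (SE) in GFP cells. Between the lines, H3K27ac was higher in Nur77 than in GFP cells at 7 of the 36 and lower at 8 after LPS, where 36% of all were called. In untreated cells it was higher at 6 and lower at 7, where 30.8% were called. Cotl1, which encodes a protein that binds Alox5, was higher in Nur77 cells (1.09 ± 0.08 (SE) after LPS and 0.89 ± 0.08 (SE) untreated), and the prostaglandin E2 receptor Ptger3 was lower (-1.48 ± 0.39 (SE) and -1.20 ± 0.39 (SE)). Also lower in both conditions were Fpr2 (-0.65 ± 0.22 (SE) and -0.89 ± 0.22 (SE)) and the prostaglandin reductase Ptgr2 (-0.61 ± 0.07 (SE) and -0.81 ± 0.07 (SE)). After LPS the phospholipase Pla2g4c (1.52 ± 0.30 (SE)) and Cysltr1 (0.85 ± 0.15 (SE)) were higher in Nur77 cells. In both conditions Dpep2 (0.22 ± 0.06 (SE) after LPS and 0.58 ± 0.06 (SE) untreated) was higher, and so was the leukotriene C4 synthase Ltc4s (0.41 ± 0.14 (SE) and 0.56 ± 0.14 (SE)), in a region shared with Mgat4b. In Pol II after LPS, Hpgds, a prostaglandin D2 synthase, was higher in Nur77 cells (1.299 ± 0.23 (SE)) and Dicer1, whose protein binds Alox5, was lower (-1.05 ± 0.19 (SE)). In untreated cells 0 were called for Pol II, where 1 was higher and 3 lower at an unadjusted p below 0.05 and 0 higher and 3 lower with the block (5.98% of all regions called). HA was called at 0 of 17 genes of the list, with 1 higher and 2 lower at an unadjusted p below 0.05 and 2 higher and 5 lower with the block, where 40.4% of all were called (limma). The LPS effect differed between the lines at 0 genes of the list, with 1 higher and 1 lower at an unadjusted p below 0.05 for Pol II and 3 higher and 1 lower for H3K27ac (limma).

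The Pol II regions whose log2 values were most like those of the Ptgs2 lead over the 8 Pol II libraries are given as a description. The closest was a region over Impdh2, Dalrd3, Wdr6 and their neighbours on chromosome 9, with a Pearson r of 0.997. It was followed by regions over Plekho2 (0.990), Plekhm3 (0.990), Gosr2 (0.988), and Dcaf8 and Pea15a (0.987). The 8 libraries share the split into LPS and untreated cells. The log2 changes of these regions with LPS ran from 0.81 to 2.00 in Nur77 cells and from 0.78 to 1.62 in GFP cells, well below those of Ptgs2.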

How the data were processed

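The deposited peak lists of 22 ChIP and 4 input libraries were used. The submitters' processing notes name HISAT2 2.1.0, HOMER and the build mm10, and the HOMER version is not given in the sources used here. Per the file headers, the deposited signal is the tag count of each peak normalized to 10 M mapped tags. The deposited values are multiples of fractions of a tag and not whole counts, so limma 3.58.1 (R 4.3.3) with a trended variance was used, on log2(tags / scaling factor + 1), with the factor computed from the regions by trimmed means (TMM). Within a target, peaks sharing 1 bp or more were joined into 1 region, and tags were summed per region and library. Regions with a peak in every library were tested: 11234 of 42505 for HA, 17081 of 46133 for Pol II and 27094 of 77715 for H3K27ac. All groups of a target entered 1 fit. The p-values of each of 11 comparisons were adjusted over all tested regions by the Benjamini-Hochberg method at 0.05. A called value covers called peaks only, so a wider peak raises the sum, and values per base of called peak were computed for this reason. The same steps were also run on simulated data with known changes, in which the libraries varied independently of each other.

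Whether equal replicate numbers pair libraries was checked from the deviations from the group means. Same-numbered libraries correlated at 0.48 to 0.83 for HA and at 0.35 to 0.63 for Pol II, which were taken as pairs, and at -0.10 to 0.09 for H3K27ac, which were not. No label says what a number stands for. The members, the wider list, the markers and the motifs were chosen with earlier results of these data known. By the naming rule, all member regions are accounted for, lead and called regions are given per library, and wider-list genes are named where called, at most 3 per direction and comparison. Leaving out HA replicate 3, alone or with the block, leaving out untreated Nur77 Pol II replicate 1 with the block, and leaving out the 3 H3K27ac libraries with HOMER's local filter on, per the file headers, were chosen after seeing the data. The sequence under the peaks was not analysed here.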

Additional observations from a re-analysis of the deposited data

Results flagged for a closer look

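Regions called in the input libraries, which no comparison used, overlapped 8 stretches of these genes, and their normalized tags stand above a count of 0. In Tbxas1 the untreated GFP input held regions of 8.2, 7.49, 7.49 and 11.8 normalized tags, and the GFP LPS input 1 of 8.33. The GFP LPS input had 6.62 at Ptgs2, the Nur77 LPS input had 6.97 at Ptges, and the untreated GFP input had 7.49 at Alox5ap. Their part in the results was not tested. With all regions over input left out, 73 of the 74 remaining values for single regions kept their direction and their side of the threshold, and the other, HA at Alox5, passed it.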

How the results depend on the processing

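For HA with LPS, where 1 region was called, 0 were called without scaling (0.0534% of all tested regions) and 0 with only the above-median peaks of each list (2.61% of all). It was 5 where a peak in every library of any 1 group was enough (14.9% of all), 2 without input regions (4.78%) and 11 with the replicate block (40.4%). Without replicate 3 in either group it was 0 (0%), and 9 so with the block (33.8%). Leaving out single HA libraries gave 0 to 1. The share of all tested Pol II regions called with LPS also changed, to 12.2% in Nur77 and 7.17% in GFP cells per base. With above-median peaks it was 27.7% and 18.4%, and without input regions 28.8% and 16.9%. For Pol II with LPS, 8 calls in Nur77 cells became 5 per base, 3 with above-median peaks and 4 without input regions (6 to 9 without single libraries). In GFP cells 9 calls became 3 per base, 3 with above-median peaks and 5 without input regions (5 to 9 without single libraries; 5 without untreated GFP replicate 2 or GFP LPS replicate 1). Between the lines the Pol II count of 0 became 2 untreated and 4 after LPS with the block, and with the block and without untreated Nur77 replicate 1 it was 0 untreated and 2 after LPS. For H3K27ac with LPS, 17 calls in Nur77 cells became 11 without input regions (16 to 17 without single libraries), and 17 in GFP cells became 11 with above-median peaks (14 to 18). Between the lines 8 untreated calls became 3 per base and 5 without input regions (6 to 10), and 10 after LPS became 8 to 12 without single libraries. Without the 3 locally filtered H3K27ac libraries, chosen after seeing the data, these were 5 and 6, and of 67 values for single regions 51 stayed, 15 lost and 1 gained a call. The H3K27ac difference of LPS effects, with 0 called, gave 1 with a pseudocount of 10 (0.65% of all), 4 where any 1 group was enough (9.32%) and 1 with above-median peaks (1.53%). For H3K27ac with LPS, 54.9% of all were called in Nur77 cells without input regions and 62% in GFP cells with above-median peaks. Between the untreated lines 14.2% of all were called per base and 29% without input regions. The above-median and the input setting test fewer regions, and leaving out the 3 libraries leaves 1 library in 3 groups; elsewhere the cause was not tested. Of 116 values for single regions, 90 kept direction and side of the threshold per base, 23 lost the call, 1 gained it and 2 turned: Pol II in the next Alox5ap region with LPS in Nur77 cells to 0.55, and H3K27ac at the Ptger2 start between the lines after LPS to 0.12. With a pseudocount of 10, and merged at 100 bp, 116 of 116 stayed, without scaling 110, and with the block 107, the other 9 gaining a call. Without single libraries 859 of 918 stayed, 56 lost and 3 gained a call. With 2 libraries a group, a left-out library leaves 1, which is assumed to vary like the others. H3K27ac libraries were not paired by number, and the block left the H3K27ac counts at 17, 17, 8, 10 and 0.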
